A study of Homo sapiens with 6 samples.

Results

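The 52 genes described here encode the machinery that copies DNA. They were chosen by name, as genes of origin licensing, the replicative helicase, the polymerases, the sliding clamp and its loaders, and the protection of the fork. All 52 were measured, by 98 of the 54613 probe sets tested, and each gene was read at 1 probe set, as were the 19775 genes of the whole array. The cells were MCF10A, an established non-tumorigenic line of human mammary epithelium. In the mimic group they were transfected with miR-221/222, and in the control group with a control microRNA. Each group had 3 biological replicates, as the labels call them, with 1 single-colour array each. The sources used here give neither the dose, nor the harvest time, nor what the control microRNA was. Both groups are 1 cell line under transient transfection.

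Values are log2 intensities of a probe set, a group of short probes for 1 transcript, so a difference of 1 is a 2-fold change. Differences are mimic minus control. Adjusted p-values are two-sided, from limma with Benjamini-Hochberg adjustment over all probe sets, and a gene was called higher or lower where this value was under 0.05. The array medians lay between 7.59 and 7.66, and arrays of the same group correlated at 0.9953 or more over probe sets. Without detection calls, it is not known whether a dim value lies above background. The control mean of 4 of the 52 genes lay under every array median.

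Replication starts where the origin recognition complex (ORC) sits on DNA. In G1, CDC6 and CDT1 load the MCM2 to MCM7 ring there, which is called licensing. In S phase the kinase CDC7 with DBF4, together with cyclin-dependent kinase, turns the ring into an active helicase with CDC45 and the GINS complex, and the polymerases follow. Transcription of many of these genes rises at the G1 to S transition through E2F factors, so their RNA is abundant in dividing cells and low in resting ones.

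The transfected microRNAs are shown first because they are the treatment. Their mature 3p strands, as RefSeq lists them on the minus strand of GRCh38.p14 (chrX:45746180-45746202 for miR-221-3p and chrX:45747036-45747056 for miR-222-3p), are given 5′ to 3′, with the seed, bases 2 to 8, in capitals. The labels do not say which strands the mimic held.
hsa-miR-221-3p: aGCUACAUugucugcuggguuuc
hsa-miR-222-3p: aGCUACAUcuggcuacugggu
Both share the seed GCUACAU. Pairing sites for it in the replication transcripts were not analysed here.

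The comparison asked how RNA of the replication machinery differs between the mimic and the control group. Of the 52 genes, 40 fell (76.9%), 1 rose and 11 were not called. Over all genes on the array 16.3% fell and 14.1% rose, so 30.4% were called in either direction. GINS1 and UHRF1, with 1 probe set each, had the lowest differences. RFC5 came next at the probe set used, but not at its other probe sets, and RPA1 was the gene that rose. The median difference was -0.52, beside 0.03 over all genes. In 43 of the 52 genes (82.7%) all mimic arrays lay below all control arrays, against 21.9% of all genes, and in 1 they lay above, against 23.7%. At least 2-fold lower were 11 genes, CDC6, GMNN, MCM2, MCM4, CDC7, DBF4, GINS1, RFC3, RFC5, FEN1 and UHRF1, where 2.09% of all genes were. By the average over each gene's probe sets, 8 of the 52 were, without MCM4, RFC3 and RFC5. The genes not called were ORC2, ORC3, ORC5, GINS4, POLA1, POLA2, PRIM2, POLD3, RFC1, LIG1 and RPA2. In RNA of whole cultures, fewer cells in S phase and less RNA per cell cannot be told apart. The spread within groups was small beside the median difference of the 52 genes, but not beside the smallest differences of the genes not called. The median SD over the 52 genes was 0.10 among the mimic and 0.07 among the control arrays, against 0.081 and 0.065 over all genes.

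**Figure D1:**
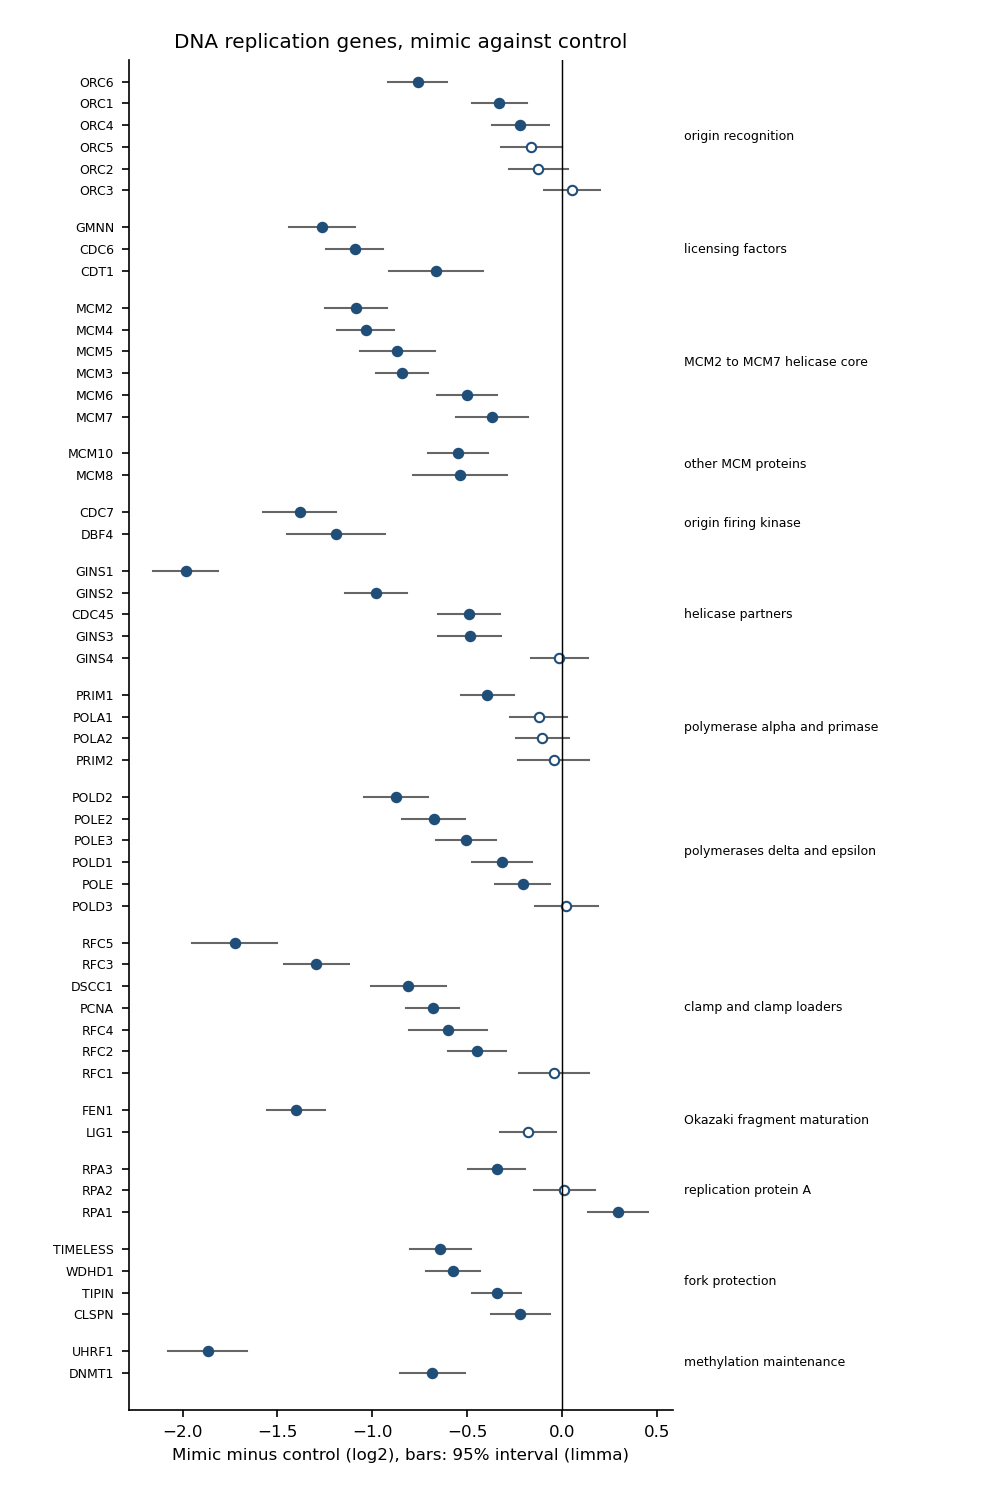
Difference of each of the 52 genes (x axis, mimic minus control, log2) with its 95% interval from limma, grouped by role on the right; filled points passed the adjusted threshold and open points did not. Most points lie left of 0, GINS1 lies farthest left at -1.98, and RPA1 is the filled point right of 0.

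Of the 6 ORC genes, 3 fell and 0 rose at the adjusted threshold. ORC6, which helps to load the MCM ring, read 7.88, 7.72 and 7.79 in mimic replicates 1 to 3 and 8.46, 8.61 and 8.60 in the control replicates. It fell by 0.76 ± 0.07 (SE) on the log2 scale (adjusted p = 1.2e-05), with no overlap of the groups. ORC6 has only 1 probe set here, of the x_at kind, which can bind several transcripts. ORC1, the subunit whose level follows the cell cycle, read 6.55, 6.72 and 6.67 with the mimic and 7.01, 7.0 and 6.93 with the control. Its groups did not overlap either (difference -0.33 ± 0.07, adjusted p = 0.0032), but all its values lay under every array median. ORC4 had a difference of -0.22 (adjusted p = 0.036), a call lost under 7 of 14 alternative settings. Not called were ORC5 (-0.16), ORC2 (-0.13) and ORC3 (0.05), core subunits of the complex. The 95% interval of ORC6 ran from -0.92 to -0.61 and that of ORC3 from -0.09 to 0.20.

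All 3 licensing factors fell. GMNN encodes geminin, which binds CDT1 and blocks a second licensing. It read 9.57, 9.75 and 9.86 in the mimic arrays and 11.02, 11.03 and 10.93 in the control arrays, 2.40-fold higher in the control (adjusted p = 5.9e-07). CDC6, the ATPase that works with ORC to load the ring, read 6.65, 6.50 and 6.48 against 7.68, 7.59 and 7.64. Its difference was -1.09 ± 0.07 (SE), the groups did not overlap, and its other probe set fell further, with -1.69. CDT1 brings MCM2 to MCM7 to ORC and CDC6. It had a difference of -0.66 ± 0.11 (adjusted p = 0.0011) at an x_at probe set, a kind that can bind several transcripts, and one of -1.11 at its other probe set. Its largest spread was in the mimic arrays, where replicate 3 read 8.33 and the others 8.80 and 8.78. The activator CDT1 and its inhibitor GMNN thus both had less RNA in the mimic arrays.

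The 6 genes of the helicase ring, which is built from 1 copy of each of MCM2 to MCM7, all fell. MCM2 read 9.13, 9.25 and 9.24 in the mimic arrays and 10.42, 10.18 and 10.29 in the control arrays. MCM4 read 9.67, 9.67 and 9.58 against 10.61, 10.78 and 10.63. Both were about a doubling apart between groups that did not overlap, at 2.12-fold and 2.05-fold higher in the control (adjusted p = 1.2e-06 and 9.0e-07). MCM5 (-0.87), MCM3 (-0.84), MCM6 (-0.50) and MCM7 (-0.37) followed, with adjusted p-values of at most 0.0080, the value for MCM7. At the probe sets used, subunits of the same ring thus had differences from -1.09 to -0.37. The intervals of MCM2 (-1.25 to -0.92) and MCM7 (-0.56 to -0.18) do not overlap, but these ends of the range were picked by their values, and the gap between them was not tested. The range depends on the probe set read: a second one gave -0.41 for MCM5, -0.52 for MCM7 and -0.06 (not called) for MCM6.

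Of the other MCM proteins, MCM10 helps to start the helicase and brings in polymerase alpha, and MCM8 acts with MCM9 in recombination repair. MCM10 read 7.62, 7.47 and 7.53 with the mimic and 8.14, 8.16 and 7.98 with the control. All 3 of its probe sets fell, from -0.55 at the one used to -1.16. MCM8 read 7.44, 7.75 and 7.99 against 8.27, 8.25 and 8.28. Its control arrays had an SD of 0.02 and its mimic arrays one of 0.28, and the groups did not overlap. Its difference was -0.54 ± 0.11 (SE; adjusted p = 0.0044), and its other probe set, at -0.04, was not called.

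The kinase that fires origins fell in both its parts. CDC7, the catalytic subunit, read 6.74, 6.89 and 7.07 in the mimic arrays and 8.19, 8.34 and 8.33 in the control arrays. DBF4, the regulatory subunit whose level sets the kinase's activity, read 8.05, 8.34 and 8.61 against 9.60, 9.51 and 9.48. Groups were separate for both genes, and mimic replicate 1 was the lowest array. The mimic SD of DBF4, 0.28, was the largest of the 52 genes. CDC7 was 2.61-fold and DBF4 2.29-fold higher in the control (adjusted p = 6.3e-07 and 1.9e-05). Each gene has 1 probe set on this array.

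Among the partners that turn the ring into an active helicase, GINS1 had the lowest difference of all 52 genes. GINS1 read 6.88, 6.91 and 6.97 in the mimic arrays and 9.03, 8.93 and 8.75 in the control arrays. The mean was 6.92 ± 0.05 against 8.90 ± 0.14 (SD, n = 3 per group). The control was 3.96-fold higher (adjusted p = 1.6e-08), which is position 78 of 19775 genes counted from the lowest difference. GINS2 read 8.08, 8.13 and 7.91 against 8.97, 9.11 and 8.99. It was 1.98-fold higher in the control, without overlap. The other 2 GINS2 probe sets were not called, at -0.17 and 0.13. CDC45 (-0.49) and GINS3 (-0.49) fell less. GINS4 was not called at the probe set used (-0.02, adjusted p = 0.90), where the groups overlapped; of its 4 probe sets 1 fell, by 0.37. The 4 GINS proteins form a complex of 1 copy each, and their RNA differences ran from -1.98 to -0.02.

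**Figure D2:**
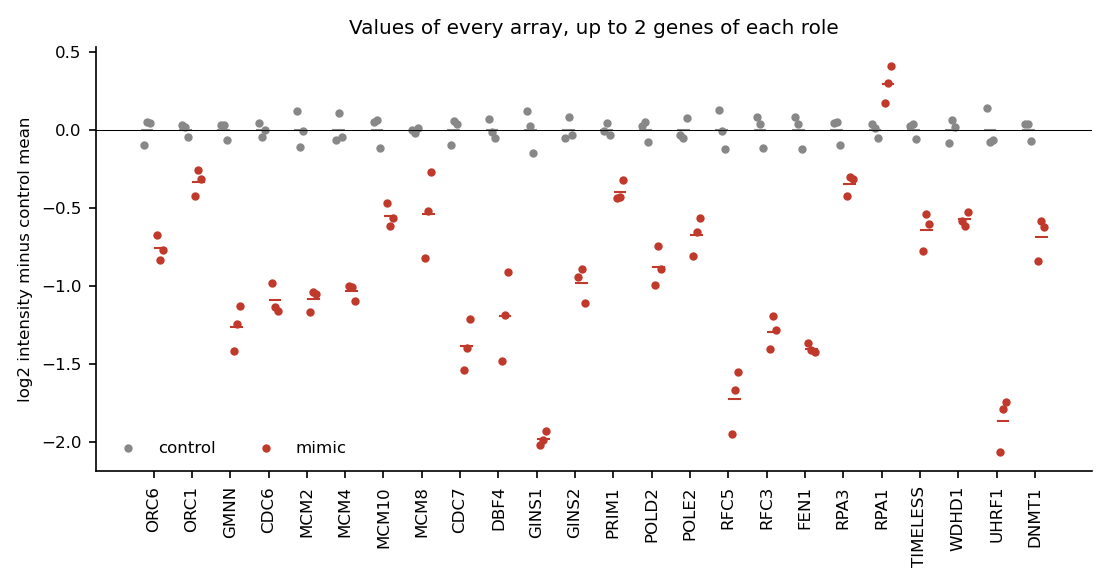
Log2 intensity of every array minus the control mean of that gene (y axis), for up to 2 called genes of each role with the largest difference; grey points are the 3 control arrays, red points the 3 mimic arrays and short lines the group means. The red points lie below the grey ones for every gene drawn except RPA1, where they lie above.

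Of the 4 subunits of polymerase alpha and primase, which lays the RNA and DNA primer, 1 fell. PRIM1, the catalytic primase subunit, read 8.22, 8.22 and 8.33 with the mimic and 8.65, 8.70 and 8.62 with the control. Its groups did not overlap, and it was 1.32-fold higher in the control (adjusted p = 0.00069). The catalytic subunit POLA1 (-0.12 ± 0.07), its partner POLA2 (-0.10 ± 0.06) and the large primase subunit PRIM2 (-0.05 ± 0.09, SE) were not called. Their 95% intervals reached down to -0.27, -0.24 and -0.23, so falls beyond these sizes lie outside the intervals. A further 4 probe sets list PRIM2 together with PRIM2BP and name neither gene here; none of them was called, and their differences ran from -0.24 to 0.02.

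Of the 6 genes of polymerases delta and epsilon, which copy the lagging and the leading strand, 5 fell. POLD2, an accessory subunit of polymerase delta, read 8.99, 9.24 and 9.09 in the mimic arrays and 10.01, 10.04 and 9.91 in the control arrays. POLE2, an accessory subunit of polymerase epsilon, read 7.0, 7.15 and 7.24 against 7.78, 7.76 and 7.89. Both separated the groups, at 1.84-fold and 1.60-fold higher in the control (adjusted p = 7.5e-06 and 5.1e-05). The histone-fold subunit POLE3 had a difference of -0.51. Of the catalytic subunits, POLD1 had a difference of -0.32 (adjusted p = 0.0066) and POLE one of -0.21 (adjusted p = 0.039), the latter lost under 7 of 14 alternative settings. POLD3, an accessory subunit of polymerase delta, was not called (0.02).

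PCNA, the sliding clamp that holds polymerases on DNA, was bright in both groups. It read 10.89, 10.94 and 10.99 with the mimic and 11.62, 11.69 and 11.57 with the control, 1.61-fold higher in the control (adjusted p = 1.2e-05). Of the 7 genes of the clamp and its loaders, 6 fell. RFC1 is the large subunit of the loader and RFC2 to RFC5 the small ones. RFC5 read 9.39, 9.67 and 9.78 against 11.47, 11.33 and 11.21. That is 3.31-fold higher in the control (adjusted p = 3.8e-07), but the other RFC5 probe sets fell by 0.62 and 0.31, and the average of all 3 had a difference of -0.89, so the size for RFC5 is uncertain. The annotation gives the probe set used to RFC5 alone, and whether it also reads another transcript was not tested. RFC3 read 7.94, 8.15 and 8.06 against 9.43, 9.38 and 9.23. It was 2.45-fold higher in the control, a second RFC3 probe set had a difference of -1.10, and the third (0.07) was not called. DSCC1, part of the alternative loader that acts in sister chromatid cohesion, had a difference of -0.81, RFC4 one of -0.60 and RFC2 one of -0.45. RFC1 was called at none of its 3 probe sets (-0.04 at the one used).

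Okazaki fragments, the short pieces of the lagging strand, are trimmed by FEN1 and joined by LIG1. FEN1, the flap endonuclease, read 8.73, 8.69 and 8.67 in the mimic arrays and 10.18, 10.14 and 9.98 in the control arrays. Its groups were far apart, at 2.65-fold higher in the control (adjusted p = 9.6e-08), and its second probe set had a difference of -1.06. LIG1, the ligase, had a difference of -0.18 ± 0.07 (SE) and was not called (adjusted p = 0.078), although its mimic arrays all lay below the control arrays. The call was gained without the dimmest probe sets (adjusted p = 0.0492) and in the fit of gene averages (adjusted p = 0.0361).

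Replication protein A coats single-stranded DNA as a trimer, in replication and in repair, and its genes went separate ways. RPA1, the large subunit that binds DNA, read 10.60, 10.73 and 10.84 in the mimic arrays and 10.47, 10.44 and 10.38 in the control arrays. The mimic arrays all lay above the control arrays, and RPA1 was 1.23-fold higher (difference 0.29 ± 0.07, adjusted p = 0.011). A second RPA1 probe set rose by 0.38 and the third (0.10) was not called. RPA3, the small subunit, read 10.12, 10.24 and 10.23 against 10.59, 10.59 and 10.45. RPA3 thus lay below the control in every mimic array (difference -0.35, adjusted p = 0.0029). RPA2, the subunit phosphorylated under replication stress, had a difference of 0.01 with a 95% interval from -0.15 to 0.17.

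The 4 fork protection genes all fell. TIMELESS and TIPIN form the complex that ties the helicase to the polymerases. TIMELESS read 8.19, 8.43 and 8.36 with the mimic and 8.99, 9.00 and 8.91 with the control, 1.56-fold higher in the control. WDHD1, the hub that links polymerase alpha to the helicase, read 6.16, 6.13 and 6.22 against 6.66, 6.81 and 6.76. Neither gene had overlapping groups (adjusted p = 6.4e-05 and 5.7e-05). WDHD1 lay under the array medians in both groups, and its 3 probe sets fell by 0.57 to 1.20. The second TIMELESS probe set (0.09) was not called, although its mimic arrays all lay above the control arrays. TIPIN had a difference of -0.35 (adjusted p = 0.0011). CLSPN, the adaptor claspin that passes the stress signal to CHK1, had -0.22 (adjusted p = 0.039) at 1 of its 4 probe sets, a call lost under 5 of 14 alternative settings.

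UHRF1 and DNMT1, which copy DNA methylation onto the new strand behind the fork, fell as well. UHRF1, which recognises half-methylated sites, read 7.69, 7.97 and 8.02 in the mimic arrays and 9.90, 9.68 and 9.70 in the control arrays. DNMT1, the methyltransferase it recruits, read 8.81, 9.06 and 9.03 against 9.69, 9.69 and 9.58. Both pairs of groups were separate. UHRF1 was 3.65-fold higher in the control (adjusted p = 1.2e-07) and DNMT1 1.61-fold (adjusted p = 6.2e-05), with 1 probe set each.

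Where a gene had several probe sets, those that were called had the same direction, while sizes often differed and some probe sets that were not called had the opposite sign. Of the 94 probe sets that name 1 of the 52 genes, 58 fell and 2 rose, both of RPA1; over the whole array 13.1% of probe sets fell and 11.6% rose. There were 26 genes with more than 1 probe set. In 10 of them every probe set fell, in 10 some fell and the rest were not called, in 5 none was called, and RPA1 makes up the count. No gene had probe sets called in both directions. Averaging all probe sets of a gene moved 9 called genes by over 1.5 times, 8 of them to smaller differences: MCM6 (-0.28), MCM8 (-0.29), GINS2 (-0.34), RFC3 (-0.78), RFC5 (-0.89), DSCC1 (-0.45), TIMELESS (-0.27) and CLSPN (-0.12, no longer called). MCM10 had a larger one (-0.84). Among the genes with the widest gap between probe sets were RFC5 (-1.73 to -0.31), RFC3 (-1.30 to 0.07), GINS2 (-0.98 to 0.13) and MCM4, of whose 5 probe sets 4 fell (-1.08 to -0.69) and 1 did not (-0.03).

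**Figure D3:**
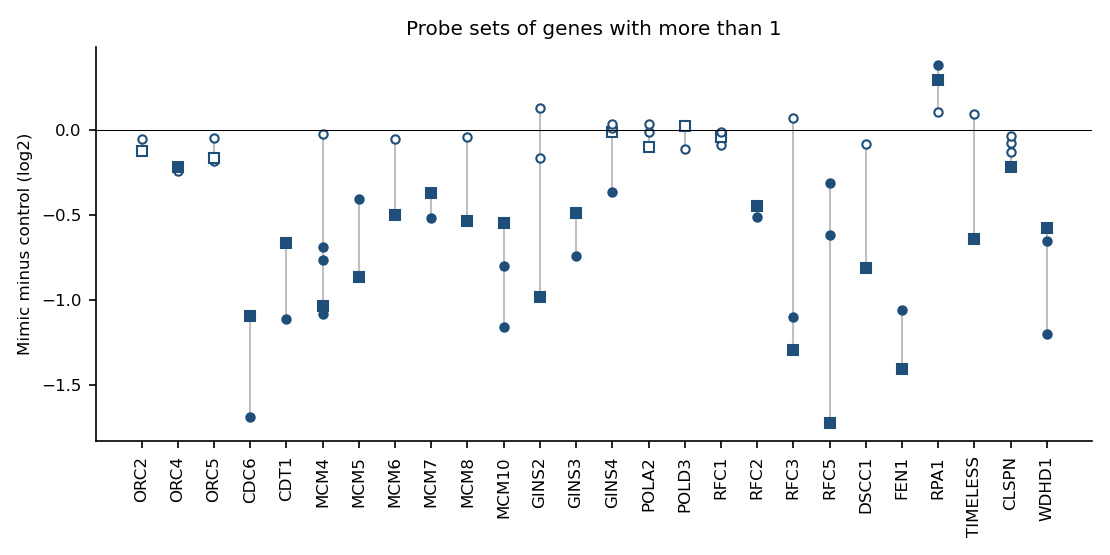
Difference (y axis, mimic minus control, log2) of each probe set of the 26 genes with more than 1; squares are the probe sets used for the gene, circles the others, and filled symbols passed the adjusted threshold. Filled symbols lie below 0 for every gene except RPA1, and open symbols lie near 0.

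Promoters were examined because the genes fell together and are known as E2F targets. RefSeq windows of 250 bases before to 50 after the gene start were at hand for 45 of the 52 genes, in build GRCh38.p14. The letters TTTCCCGC and TTTGGCGC, cores of E2F sites, were searched on both strands; the first listed window of each gene was used. They were present in 18 of the 45 windows (40%), against 460 of 15384 windows of measured genes (2.99%). With any listed window of a gene counted, the shares were 21 of 45 (46.7%) and 3.67%. These shares follow from the genes chosen by name and do not depend on the arrays. Among genes that fell 15 of 36 windows held a core (41.7%), and among the others 3 of 9 (33.3%), a difference that was not tested. The letters TTTGAA, a core of the element common in promoters of mitotic genes, were found in 1 of the 45 windows, that of DBF4, against 11.9% of windows of measured genes. Base composition of the windows was not matched, and a match of letters is not a binding site. The 19 E2F cores started at positions from -187 to 27 relative to the gene start, 16 of them before it.

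The windows printed here are the 250 bases before the gene start, 5′ to 3′ on the gene's strand, with E2F cores that lie wholly within them in capitals. UHRF1 and RFC3 are the genes with the largest falls among those with such a core, MCM6 is the gene with 2 cores, POLA1 has a core and was not called, and RPA1 rose and has none. They lie at chr19:4909251-4909500, chr13:33817899-33818148, chr2:135876444-135876693 (minus strand), chrX:24693668-24693917 and chr17:1829755-1830004, and were chosen after their values were seen.
UHRF1: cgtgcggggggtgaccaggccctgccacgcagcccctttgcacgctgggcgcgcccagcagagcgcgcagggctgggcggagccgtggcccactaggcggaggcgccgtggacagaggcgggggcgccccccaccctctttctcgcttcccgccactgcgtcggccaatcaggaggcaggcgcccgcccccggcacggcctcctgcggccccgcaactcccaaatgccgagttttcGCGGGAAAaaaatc
RFC3: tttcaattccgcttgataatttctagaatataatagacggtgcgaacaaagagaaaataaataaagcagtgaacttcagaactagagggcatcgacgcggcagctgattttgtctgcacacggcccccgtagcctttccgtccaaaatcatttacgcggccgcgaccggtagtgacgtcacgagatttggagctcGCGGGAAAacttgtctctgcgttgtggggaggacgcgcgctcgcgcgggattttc
MCM6: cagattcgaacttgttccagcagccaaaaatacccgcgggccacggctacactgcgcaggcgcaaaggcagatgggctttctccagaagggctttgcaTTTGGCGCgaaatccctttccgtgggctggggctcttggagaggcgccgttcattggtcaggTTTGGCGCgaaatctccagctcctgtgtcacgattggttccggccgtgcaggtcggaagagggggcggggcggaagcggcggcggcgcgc
POLA1: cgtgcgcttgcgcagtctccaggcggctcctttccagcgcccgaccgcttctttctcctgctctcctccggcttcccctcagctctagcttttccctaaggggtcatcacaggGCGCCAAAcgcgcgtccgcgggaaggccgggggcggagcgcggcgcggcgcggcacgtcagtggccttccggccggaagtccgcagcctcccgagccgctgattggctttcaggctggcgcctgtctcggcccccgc
RPA1: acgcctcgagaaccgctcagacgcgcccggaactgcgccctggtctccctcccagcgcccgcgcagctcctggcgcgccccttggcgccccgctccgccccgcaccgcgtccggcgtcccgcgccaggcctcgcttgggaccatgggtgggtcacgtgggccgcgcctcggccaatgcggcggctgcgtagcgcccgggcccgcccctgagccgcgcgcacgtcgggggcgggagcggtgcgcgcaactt
In UHRF1, RFC3 and POLA1 the core is read on the opposite strand. GINS1, the gene that fell most, has its core at base 6 after the start, on the opposite strand, and CDC6 at base 8. The first listed windows of FEN1, CDC7, GMNN and DBF4 held neither set of E2F letters, and these genes were all at least 2-fold lower.

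The E2F genes themselves did not all move. Of the 8 measured, 5 fell: E2F8 (-1.19), E2F2 (-0.67), E2F3 (-0.56), E2F5 (-0.27) and E2F6 (-0.22). E2F8 was dim, with means of 5.65 with the mimic and 6.84 with the control, both under every array median. By the average over probe sets, the differences were -0.36 for E2F2, -0.34 for E2F3 and -0.09 for E2F5, the last not called (adjusted p = 0.338). E2F5 and E2F6 passed narrowly (adjusted p = 0.033 and 0.038) and lost the call under 6 and 7 of 14 alternative settings. E2F1 (-0.13), E2F4 (0.15) and E2F7 (-0.05) were not called at the probe set used. E2F1 was called lower with array weights (-0.19, adjusted p = 0.0287) and without mimic replicate 1 (-0.20, adjusted p = 0.0437), and E2F4 higher with the intensity trend removed (0.22, adjusted p = 0.0284). The other E2F7 probe set fell, with a difference of -1.93, and the average of both had one of -0.99 (adjusted p = 9.02e-08). Of the 26 regulators of S phase entry, which include them, 18 fell and 3 rose, with a median of -0.57. CDK6, the kinase that with D cyclins opens the way into S phase, had a difference of -2.11 and CCNE2, an E cyclin, -2.08. CCNA2, the cyclin of S phase and G2, had -1.81. The 3 that rose were the cyclin-dependent kinase inhibitor genes CDKN1C (1.34) and CDKN1A (0.34) and the E2F partner TFDP2 (0.29), whose call was lost without control replicate 2. The third inhibitor gene of the list, CDKN1B, fell by 0.65 (adjusted p = 4.3e-05), as did RB1 (-0.73), the gene of the protein that holds E2F factors back. These 5 genes were named after their values were seen.

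Other genes at the fork were less uniform. Of 21 further replication factors, 9 fell and 1 rose at the probe set used (median -0.22). Under 5 alternative settings 2 rose, among them leaving out control replicate 3. ESCO2, RIF1, MTBP, TICRR and RNASEH2B were not called at the probe set used, although each had another probe set that fell. DONSON, a factor that helps to assemble the helicase, fell by 0.95, and RNASEH2A, of the enzyme that removes ribonucleotides from DNA, by 0.71. POLD4, the smallest subunit of polymerase delta, had a mean of 10.52 with the mimic and 9.73 with the control. It was 1.72-fold higher with the mimic (adjusted p = 4.3e-06). Of the other subunits of polymerase delta, POLD1 and POLD2 fell and POLD3 was not called. Of 10 genes of chromatin assembly at forks, 6 fell and 1 rose. The remodeller gene HELLS fell by 0.77 and the histone chaperone gene NASP by 0.67, while the chaperone gene ASF1A rose on both its probe sets, by 0.63 and 0.61. Of 9 genes of nucleotide supply, 6 fell and 1 rose (median -0.60). RRM2, of ribonucleotide reductase, had a difference of -2.57, the thymidylate synthase gene TYMS -1.46 and the thymidine kinase gene TK1 -1.22. The one that rose was DCK (0.27, adjusted p = 0.036), whose call was lost under 5 settings, among them leaving out mimic replicate 2 or 3 or control replicate 2 or 3.

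Genes of mitosis, measured the same way, fell further. Of 22, 21 fell, 17 of them at least 2-fold, and the median was -1.92, where the 52 replication genes had 11 at least 2-fold lower and a median of -0.52. BUB1 was not called at the probe set used (-0.07), although 2 of its 5 probe sets fell, the lowest with -2.49. KIF20A, CDK1 and NDC80, a kinetochore gene (-2.49), had the largest differences. The difference between the lists was not tested.

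**Figure D4:**
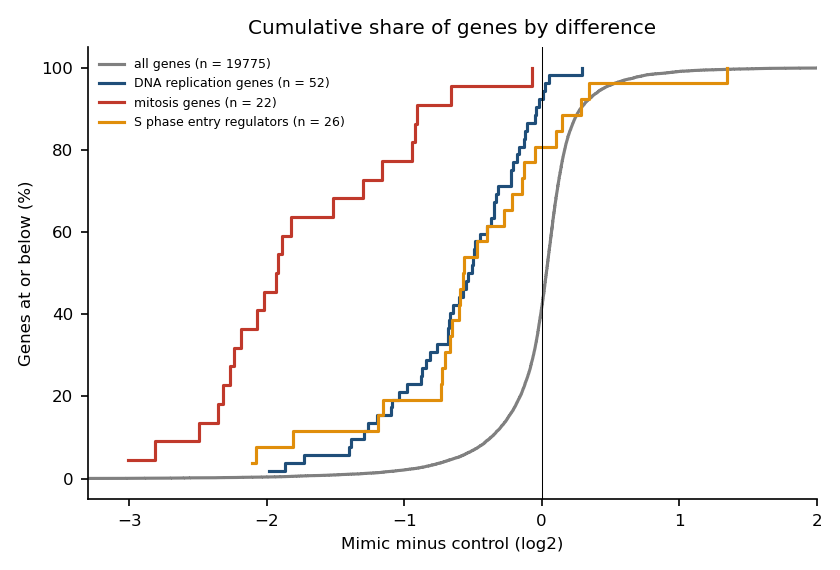
Cumulative share of genes (y axis, %) at or below each difference (x axis, mimic minus control, log2; a few genes lie beyond the drawn range), for all 19775 genes, the 52 replication genes, 22 mitosis genes and 26 regulators of S phase entry. The replication curve lies left of that of all genes and right of the mitosis curve, with medians of -0.52, 0.03 and -1.92.

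Other measures of the arrays moved with the groups to different extents. Of 8 measured epithelial markers 7 fell and 1 rose. Those that fell included the keratin genes KRT5 (11.78 with the mimic and 13.50 with the control) and KRT14 (10.88 and 13.11) and EPCAM (8.66 and 10.20). The one that rose was LAMB3 (12.18 and 11.73). KRT5, KRT14, EPCAM and LAMB3 lay above the array medians in both groups. Of 10 fibroblast markers 2 fell (FAP and LUM; 1 without the dimmest probe sets) and 1 rose (DCN), and the mean level of the list was 8.47 to 8.57 with the mimic and 8.59 to 8.62 with the control. Of 8 endothelial markers 1 fell (KDR), with list means of 7.42 to 7.56 and 7.59 to 7.60. Of 5 measured blood cell markers 1 fell (CD14) and 1 rose (ITGAM, lost under 10 alternative settings), with 8.28 to 8.34 and 8.43 to 8.46. Beside these counts, 16.3% of all genes fell and 14.1% rose. The median difference was -1.24 for the epithelial, 0.05 for the fibroblast, 0.07 for the endothelial and 0.09 for the blood cell markers. Over all genes it was 0.03. The mean level of the 52 replication genes was 8.48 to 8.60 with the mimic and 9.12 to 9.19 with the control. The 3′ minus 5′ signal, a gauge of RNA integrity, was 0.33 to 0.39 against 0.29 to 0.36 for ACTB (exact two-sided permutation p = 0.30) and 0.02 to 0.04 against -0.05 to 0.02 for GAPDH (p = 0.10, the smallest such a test can give with 3 arrays per group). The part of these measures in the fall of the replication genes was not tested. Mimic replicate 1 was the lowest mimic array for 37 of the 52 genes, and for 47% of all genes; without it 37 replication genes fell and 1 rose.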

How the data were processed

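The authors deposited log2 intensities per probe set. The submitters' processing notes name RMA, a multi-array summary of probes, without a version, and the range of the values fits a log2 scale. RMA makes array distributions alike, so a change in total RNA per cell would not show. Of 54675 probe sets, 62 controls were left out. Platform annotation gave 1 symbol to 41091 probe sets, and probe sets with several symbols named no gene. For each gene the probe set of highest mean across the 6 arrays was used.

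Mimic and control were compared with limma 3.58.1 in R 4.3.3 (lmFit, eBayes). The code was first tested on simulated data. The genes, lists and tests were chosen with earlier results of these data known. By the rule for named genes, every one of the 52 genes is given, with array values for up to 2 called genes per role and any called against the majority; other lists give up to 3 called genes. PCNA's array values, the full set of E2F genes, DCK, CDKN1B, RB1, BUB1, LAMB3 and the regulators that rose were added after values were seen. The labels call the replicates biological without saying that they came from separate cultures. The p-values thus weigh each difference against the spread between these samples, which may not be a spread between cultures. Promoter and microRNA sequences are from RefSeq. Alternatives covered filtering, scaling, variance model, array weights, probe set choice, thresholds, the replicate block and each array left out. The number of arrays limits the precision.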

Additional observations from a re-analysis of the deposited data

How the results depend on the processing

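The count of replication genes that fell was 37 to 40 when each array was left out in turn, and 38 to 40 with the dimmest 40% of probe sets left out, quantile normalization again, centring on medians, trend and robust variance, array weights, gene averages or the intensity trend removed; 1 rose each time. With the replicate block 38 fell and 1 rose; same-numbered arrays correlated at -0.11, 0.08 and 0.08 after group means were removed, so the numbers were not taken to pair arrays. With a 1.5-fold minimum, by construction fewer, 23 fell and 0 rose in limma; at an adjusted p under 0.01, 37 fell and 0 rose, and at an unadjusted p under 0.05, 42 fell and 1 rose. The median ranged from -0.55 to -0.47. Leaving out the dimmest 40% of probe sets took ORC1, CDC6 and WDHD1 out of the test, so they are not counted there. Of 725 values of single replication genes under these settings, 687 kept direction and side of the threshold, 19 lost the call (CLSPN, ORC4 and POLE), 2 gained it (LIG1) and 17 changed sign. All these sign changes were of genes not called in the report. With arrays centred, POLD3 was -0.0073 and RPA2 -0.0178. POLD3 was -0.0463 with gene averages. E2F4, which is outside the replication genes and not in these counts, also changed sign with gene averages, to -0.0045. RFC1 was 0.0297 after quantile normalization and 0.0225 with the trend removed. Over single arrays left out, the ranges were -0.0725 to 0.0142 for GINS4, -0.0939 to 0.0428 for PRIM2, -0.0200 to 0.1030 for POLD3, -0.0891 to 0.0446 for RFC1 and -0.0242 to 0.0804 for RPA2. The cause of these sign changes was not tested. Without detection calls, depth over background could not be judged for the dimmest genes.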

Other observations

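Replication genes outside the 52 also had probe sets that differed. RNASEH2B, of the enzyme that removes ribonucleotides from DNA, had a difference of 0.28 at the probe set used (adjusted p = 0.055), while 2 of its 4 probe sets fell, the lowest with -0.32. MCM9, the partner of MCM8, had -0.24 at the probe set used (not called), while 1 of its 3 rose, with 0.34. The gap was largest for ESCO2, with -0.22 at the probe set used (not called), while 1 of its 4 fell, with -1.77. RIF1 had -0.13 (not called), while 2 of its 9 fell, the lowest with -0.60. MTBP had 0.03 (not called), while 1 of its 4 fell, with -0.50. TICRR had -0.03 (not called), while 1 of its 2 fell, with -0.30.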
